A study of Homo sapiens with 12 samples.

Results

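The genes described here are the nuclear genes for the subunits of the mitochondrial respiratory chain and the ATP synthase. They were chosen by symbol alone: protein-coding genes of the NDUFA, NDUFB, NDUFC, NDUFS and NDUFV series, SDHA to SDHD, the UQCR genes, the COX4 to COX8 subunits and the ATP5 subunits. Of 57820 genes in the files, 266 carried such a symbol, and 87 remained after 169 pseudogenes, 6 non-coding RNA genes, 2 genes that are not subunits (ATP5IF1 and DMAC2L) and 2 read-through loci (ATP5MF-PTCD1 and NDUFC2-KCTD14) were left out. The 87 genes comprise 37 of complex I, 4 of complex II, 9 of complex III, 19 of complex IV and 18 of the ATP synthase, which is also called complex V. NDUFA4, once assigned to complex I and now regarded as a subunit of cytochrome c oxidase, and its relative NDUFA4L2 were counted with complex IV.

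Complex I takes electrons from NADH and complex II from succinate, both pass them through ubiquinone to complex III, and complex IV hands them from cytochrome c to oxygen. Complexes I, III and IV pump protons across the inner mitochondrial membrane, and the ATP synthase uses the returning protons to make ATP. Complex II is wholly nuclear-encoded, whereas the others also hold subunits encoded by mitochondrial DNA, so both genomes must be expressed for them to be built. Hepatocytes are rich in mitochondria, and in liver cancer cells the balance between this pathway and glycolysis is often studied.

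RNA was measured in 12 libraries of PLC/PRF/5, a human epithelial hepatoma cell line. The groups, as the titles label them, were HKDC1 knockout (KO, 4 libraries), knockout with HKDC1 put back (KO_RES, 4 libraries) and control (4 libraries). HKDC1 encodes a hexokinase domain protein related to the enzymes that phosphorylate glucose, and the design asks what its loss and return do in liver cancer cells. KO and KO_RES each comprised line 1 (KO1, KO1_RES) and line 2 (KO2, KO2_RES), with 2 libraries per line and group; KO 2_1 denotes line 2, number 1. The labels state neither how the lines were made nor whether a line is 1 clone, whether libraries of a line are separate cultures, or the oxygen level. The p-values therefore reflect the spread between these libraries, which may be technical.

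Several features of the libraries bear on what follows. HKDC1 was at 153.0 and 146.7 CPM (library-scaled counts) in KO1, at 91.2 and 49.3 CPM in KO2, at 1237 and 1546 CPM in KO1_RES, at 507 and 626 CPM in KO2_RES and between 123.5 and 182.9 CPM in the controls. HKDC1 mRNA thus lay inside the control range in the libraries labelled KO1, so the names KO1 and KO2 are the labels' own. The genotype field names another group than the title for 4 of the 12 libraries, and among KO and KO_RES it divides the libraries by their number. Total counts ran between 36075411 and 71853616 per library. Albumin was at 908 and 822 CPM in controls 1 and 2 but at 23.0 and 28.2 CPM in controls 3 and 4, and mitochondrially encoded genes held 1.16% and 1.09% of the counts in controls 1 and 2 against 0.600% and 0.566% in controls 3 and 4. The hepatocyte markers summed to between 4344 and 34777 CPM. Markers of fibroblasts (7 genes) summed to between 4.39 and 12.3 CPM and those of endothelium (5 genes) to between 0.396 and 2.02 CPM. The 8 blood markers summed to between 269 and 921.9 CPM, nearly all of it lysozyme (LYZ), whereas PTPRC, CD3E and HBB were at most 0.0896 CPM in every library.

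Of the 87 subunit genes, 83 passed the filter on low counts. The 4 that did not were COX4I2, COX6A2, COX7A1 and COX8C, isoforms known from lung, muscle and testis, none of which had more than 3 counts in any library. Their widely expressed counterparts were abundant: COX4I1 averaged 200.6 ± 40.0 CPM in KO, 200.9 ± 47.6 CPM in KO_RES and 190.0 ± 15.9 CPM in control (SD, n = 4 each). COX7B2 and COX6B2, the testis-type relatives of COX7B and COX6B1, were detected at low levels, COX7B2 between 2.01 and 8.21 CPM and COX6B2 between 0.0639 and 1.60 CPM. The subunit genes together took 1.06% and 0.987% of all counts in KO1, 1.08% and 1.03% in KO1_RES, 0.880% and 0.810% in KO2, 0.876% and 0.674% in KO2_RES and between 0.811% and 0.847% in control. Divided by the length of the principal transcript, the highest levels were those of ATP5F1B, the catalytic beta subunit of the ATP synthase (498 CPM per kilobase over all libraries), COX6B1 (415 CPM per kilobase) and UQCRH, the hinge protein of complex III (361 CPM per kilobase). The mean was under 2 CPM for 5 of the 83: NDUFA7, NDUFA13, NDUFA4L2, COX6B2 and ATP5MGL. Overlap with other genes on the same strand was 32.27% for NDUFA7, 20.97% for NDUFA13 and 30.88% for COX6B2. It was 0% for NDUFA4L2 and ATP5MGL. COX8A, with an overlap of 34.52%, averaged 83.4 CPM over all libraries. The part of overlap in the low counts of NDUFA7, NDUFA13 and COX6B2 was not tested, so their levels are uncertain in that respect.

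Named pseudogenes exist for 44 of the 87 genes and 14 have 5 or more, the most being 17 for COX6C and 12 each for NDUFA5 and NDUFB4. How reads shared with those copies were counted is not given in the sources used here, so levels of these genes are uncertain in that respect. UQCRHL and ATP5MGL are themselves near copies of UQCRH and ATP5MG.

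**Figure D1:**
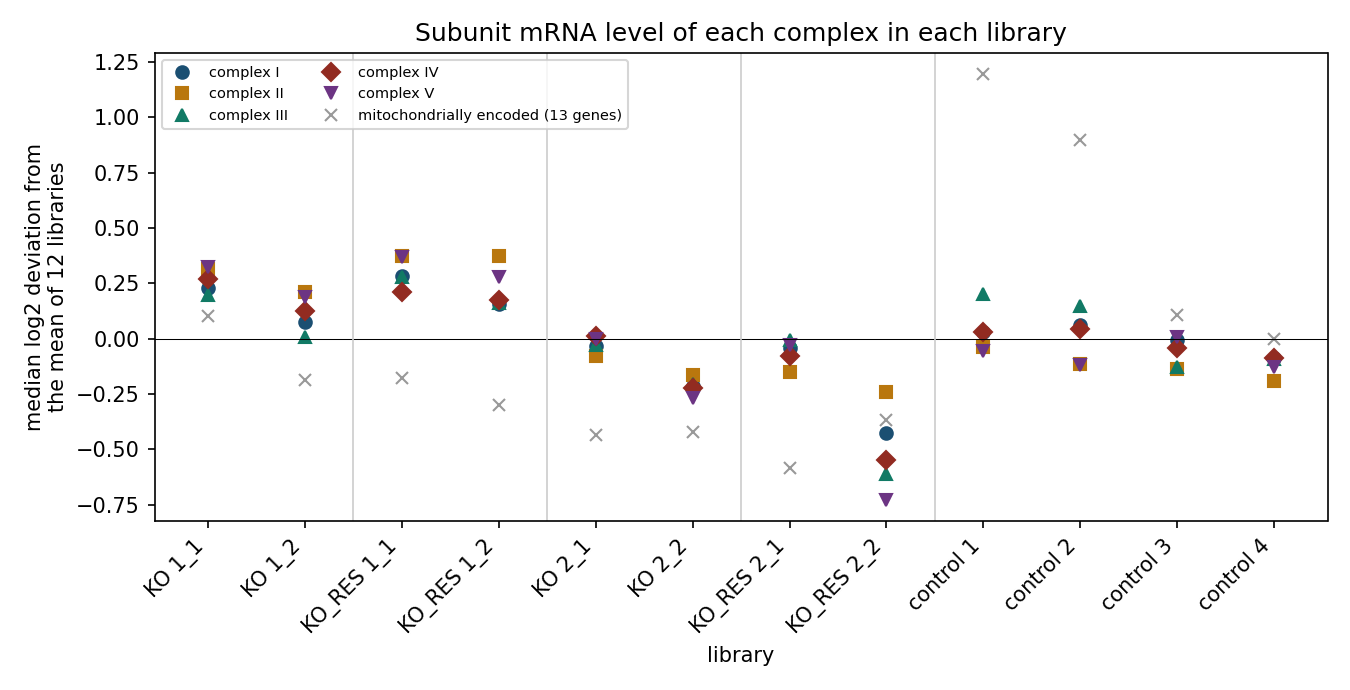
Median log2 deviation of the subunit genes of each complex from their mean over the 12 libraries (y axis), by library (x axis), with the 13 mitochondrially encoded genes as crosses. All 5 complexes lie above 0 in the 4 line 1 libraries, KO_RES 2_2 is the lowest library for every complex, and the crosses are highest in controls 1 and 2.

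All libraries labelled KO were set against control, with the limit that HKDC1 mRNA was inside the control range in KO1. In the 3-group fit, 2 of 83 subunit genes were called at an adjusted p under 0.05, both lower in KO, where 6.28% of all 19200 genes tested were called, 2.87% higher and 3.41% lower. When KO1 and KO2 were fitted as separate groups and averaged, the same contrast gave 9 of 83 genes called, 6 higher and 3 lower, where 16.1% of all genes were called. The median log2 fold change was 0.08 for the subunit genes and 0.01 for all genes. KO and control libraries did not overlap for 13 of the 83 genes, or 15.7%, where 16.8% of all genes tested did not overlap.

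The clearest of the 2 was NDUFB11 (ENSG00000147123, X chromosome), a membrane-arm subunit of complex I. It was at 92.4 and 86.1 CPM in KO1 and 95.0 and 86.8 CPM in KO2, against 139.7, 148.1, 123.2 and 130.2 CPM in controls 1 to 4. KO and control did not overlap, and the mean fell to 90.1 ± 4.34 CPM in KO, against 135.3 ± 10.9 CPM in control (SD, n = 4 each). The log2 fold change was -0.59 (SE 0.10, adjusted p = 0.00637). NDUFB11 was called under 20 of 22 alternatives, and not when controls 1 and 2 were left out or when only the 8 libraries with matching title and genotype field were used.

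COX6C, a nuclear subunit of complex IV, was at 113.0, 100.005, 96.6 and 88.6 CPM in KO, against 170.6, 168.9, 130.1 and 122.9 CPM in control. Every KO library lay below every control library, with the larger gap to controls 1 and 2. The log2 fold change was -0.57 (SE 0.15, adjusted p = 0.0402), and it was called under 10 of 22 alternatives, with a fold change as small as -0.35 and an adjusted p of up to 0.372. Outside the threshold, the highest positive log2 fold changes among genes of at least 2 CPM were those of NDUFS3 (0.60, adjusted p = 0.305), SDHB (0.58, adjusted p = 0.0593) and COX7A2L (0.50, adjusted p = 0.0786), and the next most negative was that of ATP5ME (-0.51, adjusted p = 0.121).

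Returning HKDC1 was tested by KO_RES against KO. None of 83 subunit genes was called, and none had an unadjusted p under 0.05, with edgeR; DESeq2 also called none and found none at an unadjusted p under 0.05. Of all 19200 genes tested, 0% were called. Median log2 fold changes were -0.03 for the subunit genes and 0.00 for all genes. NDUFB11 averaged 92.8 ± 9.76 CPM in KO_RES and 90.1 ± 4.34 CPM in KO (SD, n = 4 each), a log2 fold change of 0.04. COX6C averaged 99.7 ± 14.9 CPM in KO_RES and 99.6 ± 10.2 CPM in KO. HKDC1 itself was several times higher in KO_RES than in KO in these same libraries, yet this fit, which pools both lines, did not call it. A fit that missed this rise cannot show that smaller changes in the subunit genes are absent. At 507 to 1546 CPM in KO_RES, HKDC1 was also above the controls, at 123.5 to 182.9 CPM. In KO1 its mRNA was already within the control range, so in line 1 the contrast is not a return from a low mRNA level. When libraries were paired by line and number, again no subunit gene was called, 3 had an unadjusted p under 0.05, and 0.0405% of 19766 genes were called, 0.0253% higher and 0.0152% lower. KO_RES and KO overlapped for all 83 subunit genes, where 1.67% of all genes tested did not overlap.

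KO_RES against control, which shares its controls with the KO comparison, gave 3 of 83 genes called, where 5.47% of all genes were called, 2.18% higher and 3.29% lower. Averaged over separately fitted lines it gave 10, 5 higher and 5 lower, where 15.4% of all genes were called. NDUFB11 fell by 0.54 and COX6C fell by 0.57 on the log2 scale (SE 0.10 and 0.15, adjusted p = 0.0103 and 0.0431). SDHB, the iron-sulfur subunit of complex II, was higher by 0.64 (SE 0.16, adjusted p = 0.0426). It was at 144.7 and 140.5 CPM in KO1_RES and 121.5 and 97.2 CPM in KO2_RES, against 68.4, 67.6, 97.4 and 89.8 CPM in controls 1 to 4. The KO_RES 2_2 value lay just under control 3, so the groups touched, and SDHB was called under 7 of 22 alternatives.

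Each line was then set against control in a fit with 5 groups. In KO1, many subunit genes were higher than in control: 17 of 83 were called, 15 higher and 2 lower, where 18.1% of all 20559 genes tested were called, 8.36% higher and 9.74% lower. The share called was near that of all genes, but the direction was not: the median log2 fold change was 0.23 for the subunit genes, against -0.02 for all genes. KO1 and control did not overlap for 52 of 83 genes, where 44.4% of all genes did not overlap. This contrast uses libraries labelled KO1, in which HKDC1 mRNA was within the control range. In KO2, 6 of 83 were called, all lower, where 10% of all genes were called, 4.79% higher and 5.24% lower. KO2 and control did not overlap for 27 of 83 genes, where 34.8% of all genes did not overlap. In KO2 the median was -0.10 for the subunit genes, against 0.00 for all genes. Both contrasts use the same 4 controls.

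**Figure D2:**
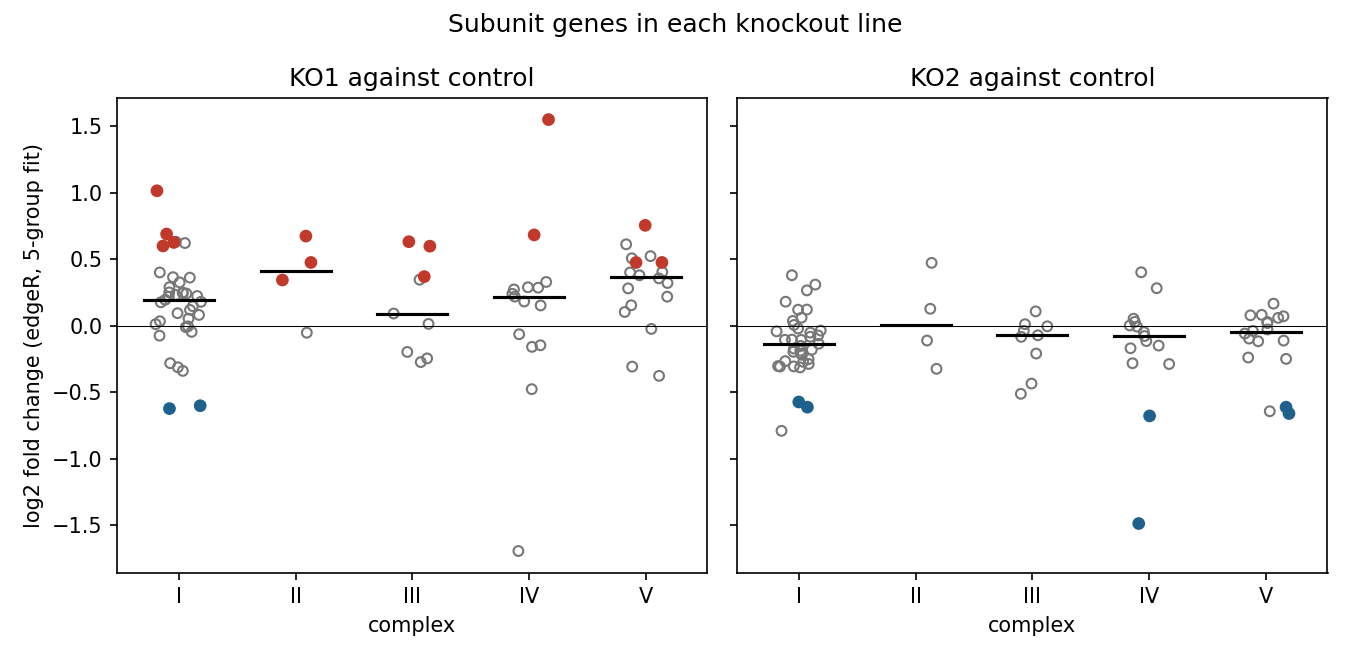
Log2 fold change of each subunit gene (y axis) by complex (x axis) in KO1 and in KO2 against the same 4 controls; filled red and blue points passed an adjusted p of 0.05 as higher and lower, open points did not, and bars are medians. In KO1, 15 points are red and 2 blue, and in KO2, 6 are blue and none red.

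In complex I, 4 genes were higher in KO1. NDUFA5 (ENSG00000128609, chromosome 7), an accessory subunit of the matrix arm, was at 104.3 and 95.1 CPM in KO1, 98.8 and 94.7 CPM in KO1_RES, 43.7 and 42.3 CPM in KO2, 41.0 and 39.8 CPM in KO2_RES and 68.7, 66.5, 66.6 and 61.1 CPM in control. Line 1 lay wholly above the controls and line 2 wholly below them. Its log2 fold change was 0.60 in KO1 (SE 0.09, adjusted p = 0.00165) and -0.61 in KO2 (SE 0.10, adjusted p = 0.00327).

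NDUFS3 (ENSG00000213619, chromosome 11), a core subunit of the matrix arm, was at 77.2 and 70.3 CPM in KO1 and 81.5 and 71.0 CPM in KO1_RES, against 35.3, 33.2, 40.6 and 36.7 CPM in control. Its log2 fold change in KO1 was 1.01 (SE 0.14, adjusted p = 0.00120). In KO2 it was at 40.1 and 33.1 CPM, close to the control values. NDUFA10 (ENSG00000130414, chromosome 2), an accessory subunit of complex I, was at 101.7 and 104.3 CPM in KO1 and 65.2 and 59.1 CPM in KO2, against 61.8 to 67.6 CPM in control, with a log2 fold change of 0.69 in KO1 (SE 0.09, adjusted p = 0.000723). NDUFA8, another accessory subunit, was higher by 0.63 (adjusted p = 0.00320). The 2 genes of complex I that were lower in KO1 were NDUFB11 (-0.60, adjusted p = 0.00909) and NDUFB8 (-0.62, adjusted p = 0.0203), both in the membrane arm. NDUFB8 had an overlap of 33.77% with other genes on the same strand.

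In complex II, 3 of 4 genes were higher in KO1: SDHB by 0.67 (adjusted p = 0.0229), and the membrane anchors SDHD by 0.48 (adjusted p = 0.0238) and SDHC by 0.34 (adjusted p = 0.0345). SDHA, the flavoprotein that holds the catalytic site, was at 119.6 and 118.1 CPM in KO1, inside the control range of 112.1 to 136.4 CPM, with a log2 fold change of -0.05 (adjusted p = 0.775).

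In complex III, UQCRC1 (ENSG00000010256, chromosome 3), a core subunit, was at 214.1 and 209.9 CPM in KO1, 232.9 and 236.0 CPM in KO1_RES, 143.9 and 131.7 CPM in KO2 and 130.4 to 142.1 CPM in control. All 4 line 1 libraries stood far above the controls, while KO 2_1 and KO_RES 2_1 (144.5 CPM) lay just above the highest control. Its log2 fold change in KO1 was 0.63 (SE 0.10, adjusted p = 0.00195). The other core subunit, UQCRC2, was higher by 0.37 (adjusted p = 0.0403), and UQCRFS1, the Rieske iron-sulfur protein, by 0.60 (adjusted p = 0.0104).

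Complex IV had 2 genes called in KO1, both higher. COX7A2L, a factor in supercomplex assembly that resembles COX7A, was at 169.4 and 171.3 CPM in KO1 and 132.3 and 125.4 CPM in KO2, against 93.7 to 123.2 CPM in control, with a log2 fold change of 0.68 in KO1 (SE 0.13, adjusted p = 0.00642). NDUFA4L2, known as a hypoxia-inducible relative of NDUFA4, was higher by 1.55 in KO1 (adjusted p = 0.0107) and lower by -1.49 in KO2 (adjusted p = 0.0465), but at 1.28 and 1.38 CPM in KO1, 0.202 and 0.122 CPM in KO2 and 0.307 to 0.674 CPM in control it was among the lowest genes tested. With unstranded counts its call was lost in both (log2 fold change 0.45 in KO1 and -0.83 in KO2). NDUFA4 itself was at 216.4 and 185.6 CPM in KO1, inside the control range of 183.0 to 257.8 CPM.

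In the ATP synthase, ATP5PO, the stalk subunit that confers oligomycin sensitivity, was at 96.0 and 84.1 CPM in KO1 and 104.8 and 93.2 CPM in KO1_RES, against 44.8 to 59.96 CPM in control, a log2 fold change of 0.75 in KO1 (SE 0.16, adjusted p = 0.00846). ATP5F1B (0.48, adjusted p = 0.0305) and ATP5PF (0.47, adjusted p = 0.0432) were also higher in KO1. In KO2, ATP5F1D, the delta subunit of the central stalk, was at 20.1 and 21.7 CPM, against 31.3, 33.2, 29.3 and 34.2 CPM in control, and fell by 0.61 (SE 0.13, adjusted p = 0.0170). ATP5ME, a membrane subunit, fell by 0.66 in KO2 (adjusted p = 0.0435). NDUFB11 (-0.57, adjusted p = 0.0179) and COX6C (-0.68, adjusted p = 0.0342) completed the 6 calls in KO2. Of 18 alternatives, 5 kept the KO2 call of ATP5ME (adjusted p up to 0.303), 9 that of COX6C, 7 that of NDUFA4L2, 15 that of NDUFB11 and 16 that of ATP5F1D.

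The call in KO1 held under all 18 alternatives for NDUFA10, NDUFS3, NDUFA5 and UQCRC1, and in KO2 for NDUFA5. Of the other KO1 calls followed in this way, SDHB was kept under 13 of 18, and NDUFB8 and NDUFA4L2 under 15. COX7A2L, NDUFB11 and UQCRFS1 were kept under 16, and ATP5PO and NDUFA8 under 17. The KO1 calls of SDHB and NDUFB8 were both lost when controls 1 and 2 were left out. Each line has 2 knockout libraries, so a fit without 1 of them rests on 1. Such fits are among the 18 alternatives. Apart from tallies and ranges over the alternatives, only their median log2 fold change is given. The median in KO1 was 0.14 without KO 1_1 and 0.27 without KO 1_2. In KO2 the median was -0.21 without KO 2_1 and 0.02 without KO 2_2. Without control 1 the count in KO2 was 3, where 7.27% of all genes were called. Without control 2 the count in KO1 was 11, where 14.4% of all genes were called. Leaving out KO_RES 2_2 also changed the number of genes tested, from 20559 to 21247, and the median in KO1 was then 0.22.

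**Figure D3:**
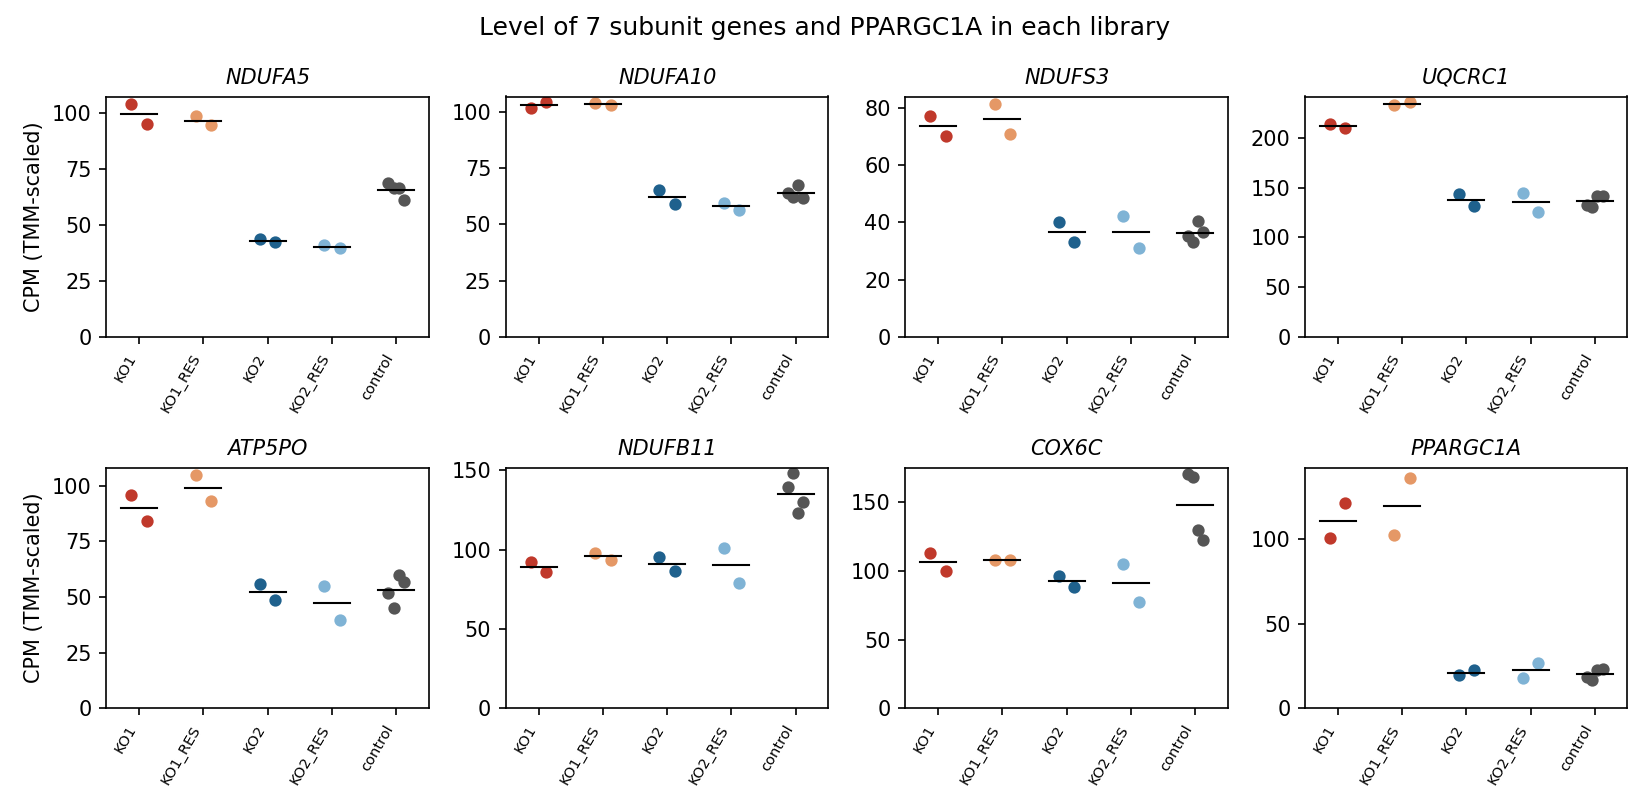
Level in CPM (y axis, from 0) of 7 subunit genes and of PPARGC1A in each library, by group (x axis); points are libraries and bars are group means. Line 1 is above line 2 and the controls for NDUFA10, NDUFS3, UQCRC1, ATP5PO and PPARGC1A, and all KO and KO_RES libraries are below the controls for NDUFB11 and COX6C.

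The rescue libraries of each line, which are separate libraries but share the controls, gave 23 subunit genes higher and 1 lower in KO1_RES, where 18.2% of all genes were called, 7.47% higher and 10.7% lower. In KO2_RES, 7 were lower and none higher, where 9.62% of all genes were called, 4.26% higher and 5.36% lower. The medians were 0.26 in KO1_RES and -0.23 in KO2_RES. These fits were chosen after the data were seen.

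The difference between the lines was tested directly in KO2 against KO1. Of 83 subunit genes, 14 were called, all lower in KO2, where 12% of all genes were called, 6.26% higher and 5.72% lower. The lines did not overlap for 58 of 83 genes, where 58.5% of all genes did not overlap. In all, 74 of 83 were lower in KO2, with a median of -0.28, against 0.03 for all genes. NDUFA5 had the smallest adjusted p, with a log2 difference of -1.21 (SE 0.11, adjusted p = 0.000123), followed by NDUFA10 (-0.73, adjusted p = 0.00178), NDUFA4L2 (-3.04, adjusted p = 0.00211) and NDUFS3 (-1.01, adjusted p = 0.00449). The others were ATP5F1D, UQCRC1, ATP5PF, ATP5PO, SDHC, NDUFA8, NDUFA2, NDUFS7, UQCRC2 and NDUFB2, between -0.45 and -1.01. No subunit gene of complex II, complex III or the ATP synthase had a positive difference. The median was -0.20 without KO 1_1, -0.36 without KO 1_2, -0.39 without KO 2_1 and -0.17 without KO 2_2. It was -0.28 without KO_RES 1_1 and -0.28 without KO_RES 1_2. Each of these fits leaves 1 library in a group and also changes the genes tested.

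Markers moved with the lines. The 11 hepatocyte markers summed to 5287 and 5543 CPM in KO2, against 17112 and 28699 CPM in KO1. Most of that gap was APOB, at 20.2 and 47.8 CPM in KO2, against 10409 and 21595 CPM in KO1 (log2 difference -8.88, adjusted p = 0.000123). The median over the 11 was -0.24 and 4 were positive, with HNF4A called higher in KO2 (0.53, adjusted p = 0.0251). Of the fibroblast markers, COL3A1 and LUM were called higher in KO2 than in KO1, and the 7 markers summed to 10.5 and 12.3 CPM in KO2, against 5.27 and 5.81 CPM in KO1. PTPRC, CD3E and HBB, which define blood cells, were at or near 0 in both. The part of these markers in the difference was not tested. In bulk RNA, a change in the mix of cells and a change of RNA per cell cannot be told apart.

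Promoters are shown for the 4 genes whose call in KO1 held under every alternative, as 300 bases from 250 before to 50 after the RefSeq gene start, on GRCh38.p14 and read along the gene's strand. Capitals mark matches, on either strand, to CGCATGCG (NRF1), CCGGAAG (ETS factors such as GABP), AAGATGGCG (YY1) and ACGTG (HIF core); matches in these 4 promoters do not overlap one another. Both the genes and the strings were picked after values had been seen.
NDUFA5, chr7:123601602-123601901, minus strand: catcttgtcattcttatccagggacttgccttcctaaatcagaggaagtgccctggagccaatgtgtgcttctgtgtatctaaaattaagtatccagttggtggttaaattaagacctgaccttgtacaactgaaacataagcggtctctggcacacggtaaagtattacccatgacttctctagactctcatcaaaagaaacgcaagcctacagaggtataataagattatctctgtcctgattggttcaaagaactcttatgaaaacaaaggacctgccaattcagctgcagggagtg
NDUFS3, chr11:47578824-47579123, plus strand: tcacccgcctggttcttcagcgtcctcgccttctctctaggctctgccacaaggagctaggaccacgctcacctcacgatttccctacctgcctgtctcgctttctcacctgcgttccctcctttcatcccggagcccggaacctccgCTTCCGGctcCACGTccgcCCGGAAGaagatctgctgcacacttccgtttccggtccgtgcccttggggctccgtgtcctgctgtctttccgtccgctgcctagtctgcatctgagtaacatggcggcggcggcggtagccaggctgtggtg
NDUFA10, chr2:240025293-240025592, minus strand: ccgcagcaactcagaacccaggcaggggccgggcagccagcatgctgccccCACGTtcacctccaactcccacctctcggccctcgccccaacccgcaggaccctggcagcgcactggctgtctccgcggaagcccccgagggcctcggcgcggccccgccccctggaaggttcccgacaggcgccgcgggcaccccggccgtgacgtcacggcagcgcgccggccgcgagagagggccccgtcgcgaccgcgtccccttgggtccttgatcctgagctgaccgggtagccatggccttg
UQCRC1, chr3:48609597-48609896, minus strand: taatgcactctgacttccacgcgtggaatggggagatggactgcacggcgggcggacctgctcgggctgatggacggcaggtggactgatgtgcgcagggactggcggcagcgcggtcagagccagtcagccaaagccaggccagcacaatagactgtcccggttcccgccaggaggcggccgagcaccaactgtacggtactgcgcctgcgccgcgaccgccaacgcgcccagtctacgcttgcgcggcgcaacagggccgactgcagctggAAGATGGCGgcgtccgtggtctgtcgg

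NDUFS3 held a pair of ETS strings and a HIF core, NDUFA10 a HIF core and UQCRC1 the YY1 string, and NDUFA5 held none of the 4 in this window. Only 1 window per gene was searched, so strings near any other start of NDUFA5 would be missed. Of 71 subunit genes with a promoter in the RefSeq table, 28.2% held the ETS string, against 10.7% of all 27305 promoters. The NRF1 string was in 14.1% against 2.19%, the YY1 string in 11.3% against 1.85% and the HIF core in 23.9% against 21.6%. Longer strings had been searched first, and these shorter ones were taken after few matches were seen. In those longer forms the NRF1 string was in 5.63% of subunit promoters against 1.36% of all, the ETS string in 7.04% against 2.32%, the YY1 string in 9.86% against 1.28% and the HIF core in 2.82% against 3.33%. A string match is a description of the sequence and not a binding site.

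The libraries numbered 2 and 1 within each line and group were also compared, because the genotype field divides them in this way. Subunit genes were lower in number 2: of 83, 34 were called, 33 lower and 1 higher, where 20% of all 19766 genes were called, 10.2% lower and 9.82% higher. KO and KO_RES libraries of the same line and number deviated together but entered as separate replicates, so the p-values of this comparison, and of the fits within lines, are too small. The median was -0.27 for the subunit genes, against 0.02 for all genes. NDUFS6, an accessory subunit of complex I, was at 47.6, 38.1, 44.6 and 29.2 CPM in KO 1_2, KO 2_2, KO_RES 1_2 and KO_RES 2_2, against 55.9, 47.0, 59.9 and 48.3 CPM in their number 1 counterparts. It was lower in number 2 in 4 of 4 pairs, with a log2 difference of -0.44 (SE 0.09, adjusted p = 0.0106). ATP5MC2, one of the genes for the c ring of the ATP synthase, was lower by -0.42 (adjusted p = 0.0112) and NDUFB3, a membrane-arm subunit of complex I, by -0.60 (adjusted p = 0.0121). COX6B2 was the 1 gene higher, by 2.01 (adjusted p = 0.01003), at 0.281 to 1.60 CPM in number 2 and 0.0639 to 0.330 CPM in number 1. Number 2 and number 1 libraries did not overlap for 8 of 83 genes, or 9.64%, where 10.6% of all genes did not overlap.

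Within line 2, where the comparison rests on 1 pair of KO and KO_RES libraries against another, 45 genes were called, 44 of them lower, with a median of -0.38, where 18.3% of all genes were called, 8.62% higher and 9.69% lower. Within line 1 none was called by edgeR and 4 had an unadjusted p under 0.05, with a median of -0.15, where 0.471% of all genes were called, 0.359% higher and 0.111% lower. A test of the difference between lines called none of 83 subunit genes, with 13 at an unadjusted p under 0.05, and none of 19766 genes, with 1656 at an unadjusted p under 0.05. Without KO_RES 2_2, the lowest library of all, the median over both lines was -0.18. It was also -0.18 without KO_RES 2_1, and -0.34 without KO_RES 1_1 or without KO_RES 1_2. The median was -0.28 without KO 2_1 or without KO 2_2, and -0.32 without KO 1_1 or without KO 1_2. Each of these fits leaves 1 library in a group. The fits within lines were chosen after the data were seen.

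Transcript length moved with this difference. Subunit genes with a principal transcript of at most 750 bases had a median of -0.31 in number 2 against number 1 (29 genes, 51.7% called lower), and other genes of that length with a mean over 20 CPM had a median of -0.33 (148 genes, 53.4% called lower). Between 750 and 1500 bases the medians were -0.27 for 31 subunit genes and -0.20 for 790 other genes. Between 1500 and 3000 bases they were -0.11 for 14 subunit genes and -0.14 for 2532 other genes. Over 3000 bases they were -0.18 for 9 subunit genes and -0.03 for 4291 other genes. Of 83 genes of the cytosolic ribosome, which are short and abundant, 73 were called lower, with a median of -0.43. The part of length or RNA quality in the difference was not tested.

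The same length classes were applied to the difference between lines. In KO2 against KO1, subunit genes of at most 750 bases had a median of -0.21, and other genes of that length over 20 CPM had a median of 0.06. Cytosolic ribosomal protein genes had a median of 0.25. In KO1 against control, subunit genes up to 750 bases had a median of 0.15, against -0.15 for other genes of that length and -0.26 for cytosolic ribosomal proteins. The classes were set after the data were seen, and the part of length or RNA quality in the difference between lines was not tested.

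**Figure D4:**
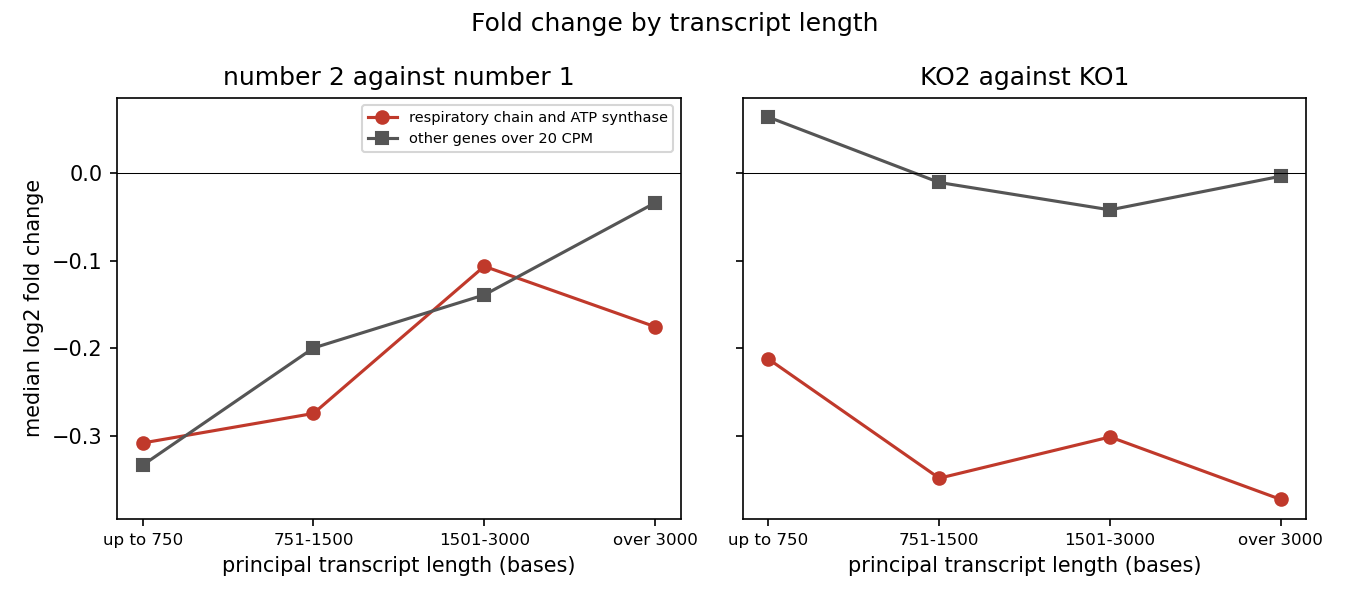
Median log2 fold change (y axis) by length of the principal transcript (x axis) for subunit genes and for other genes with a mean over 20 CPM, in number 2 against number 1 and in KO2 against KO1. In the comparison of numbers both sets lie below 0 in every class and are lowest for the shortest transcripts, whereas in KO2 against KO1 the subunit genes lie below the other genes in every class.

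Of 18 genes for regulators of this pathway, PPARGC1A stood out in line 1. It encodes PGC-1alpha, a coactivator that raises expression of respiratory genes. It was at 100.6 and 121.1 CPM in KO1, 102.6 and 136.2 CPM in KO1_RES, 19.4 and 22.6 CPM in KO2, 17.7 and 26.9 CPM in KO2_RES and 16.4 to 23.5 CPM in control. Every line 1 library was several times higher than every other library. Its log2 fold change was 2.44 in KO1 (SE 0.20, adjusted p = 4.33e-05) and its difference in KO2 against KO1 was -2.40 (adjusted p = 0.000285). In number 2 against number 1, where 33 subunit genes were called lower, PPARGC1A was called higher (0.36, adjusted p = 0.0128). The part of PPARGC1A in the levels of the subunit genes was not tested. In KO1, 2 of 17 tested regulators were called higher, PPARGC1A and its partner receptor ESRRA (0.49, adjusted p = 0.0161), and 1 lower, the mitochondrial rRNA methyltransferase TFB1M (-1.53, adjusted p = 0.00124). These 3 of 17 are again close to the 18.1% called among all genes.

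The 13 protein-coding genes of mitochondrial DNA are partners of the nuclear subunits in complexes I, III, IV and V. All 13 had negative log2 fold changes in KO against control, with a median of -0.80. Of these, 2 were called, MT-ATP6 and MT-ND3, where 6.28% of all genes were called. Their median was -0.55 in KO1 with none called by edgeR (3 at an unadjusted p under 0.05), where 18.1% of all genes were called. It was -1.03 in KO2 with 3 called lower, where 10% of all genes were called. In KO2 against KO1 all 13 were again negative, as most nuclear subunit genes were, with a median of -0.40. None was called by edgeR and 1 had an unadjusted p under 0.05, where 12% of all genes were called. MT-CO1 was at 2397 and 2299 CPM in KO1 and 1635 and 1702 CPM in KO2, against 4451 and 4346 CPM in controls 1 and 2 and 2441 and 2262 CPM in controls 3 and 4. The KO1 values were therefore close to those of controls 3 and 4 and far below those of controls 1 and 2.

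Assembly factors help to build the complexes without being part of them. Of 56 tested, 7 were higher and 4 lower in KO1, led by COX10 (0.88, adjusted p = 0.000519), an enzyme of heme a synthesis, CMC1 (0.77, adjusted p = 0.000760) and COX15 (-0.66, adjusted p = 0.00147). These 11 of 56 are a share close to the 18.1% called among all genes. In KO2, 1 was higher and 6 lower, where 10% of all genes were called. TIMMDC1, needed for the membrane arm of complex I, was at 30.4 and 28.8 CPM in KO2 and 28.6 and 27.3 CPM in KO2_RES, against 64.6 to 68.7 CPM in control, and at 65.3 and 68.6 CPM in KO1. It was low only in the 4 line 2 libraries, with a log2 fold change of -1.18 in KO2 (adjusted p = 5.75e-05) and a difference of -1.18 in KO2 against KO1 (adjusted p = 0.000103). NDUFAF3 was lower in both lines, by -0.70 in KO1 (adjusted p = 0.00875) and -0.74 in KO2 (adjusted p = 0.0108). COX17, a copper chaperone for complex IV, fell by 1.15 in KO2 (adjusted p = 0.00860).

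Of 75 tested genes of the mitochondrial ribosome, 11 were higher and 2 lower in KO1, with a median of 0.19, a share close to the 18.1% called among all genes. In KO2, 1 was higher and 1 lower, with a median of 0.09, where 10% of all genes were called. MRPS15 was higher in both, by 0.60 in KO1 (adjusted p = 0.00790) and by 0.59 in KO2 (adjusted p = 0.0133). Among 10 genes of electron carriers, CHCHD4, which drives oxidative import into the space between the mitochondrial membranes, was higher by 1.08 in KO1 (adjusted p = 0.000151) and lower by -0.86 in KO2 against KO1 (adjusted p = 0.00204).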

How the data were processed

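The authors deposited unnormalized gene-level read counts, obtained with STAR 2.6.0b on GRCh37, per the submitters' processing notes, and a stranded mRNA kit, per the labels' protocols. The annotation release, trimming and filters are not given in the sources used here. Column 4 of each file was used, since its total was 19.8 to 21.1 times that of the opposite strand; 4 lines of unassigned reads were left out, and genes without a symbol held 4.06% to 5.58% of counts. Symbols came from a names table, else GENCODE release 29, which also gave chromosomes and transcript lengths on GRCh38; promoters came from RefSeq (GRCh38.p14).

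Counts were tested with edgeR 4.0.16 in R 4.3.3: filterByExpr, TMM scaling and quasi-likelihood tests, with Benjamini-Hochberg adjustment over all genes tested and a call at an adjusted p under 0.05. A 3-group fit (19200 genes, biological coefficient of variation 36.2%) gave KO, KO_RES and control; a 5-group fit (20559 genes, 25.8%) gave each line; a fit of 8 KO and KO_RES libraries with line and group as terms (19766 genes, 12.4%) gave number 2 against number 1. Levels are CPM computed on TMM-adjusted library sizes, with mean ± SD over n = 4; means of a line rest on 2 libraries. The floor of 3 counts was 0.0408 to 0.0849 CPM by library and covers counting error only. Libraries of the same group differed beyond sampling noise in all 10 pairs (chi-square per gene 11.4 to 223). The scripts were tested on simulated data.

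The members and lists were chosen with earlier results of these data known. Named in each comparison are up to 12 called members with the smallest adjusted p, the 3 largest fold changes each way at a mean of at least 2 CPM, tissue isoforms, SDHA to SDHD, and up to 3 called genes per related list; some others were chosen after their values were seen. Leaving out the read-through loci was decided after the files were read. The numbers pair KO and KO_RES: deviations from the group means of libraries with the same line and number correlated at 0.778, 0.829, 0.849 and 0.767, though libraries of the same line with another number also correlated at 0.341 to 0.693. Other settings tried were DESeq2 1.42.0, scaling by RLE, unstranded counts, no filtering, each library left out, other sample sets and group labels, and blocks. The list of citric acid cycle genes is not reported here.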

Additional observations from a re-analysis of the deposited data

Results flagged for a closer look

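A library stood apart from the other 3 of its group for 9 of 132 groups of 4 examined over 44 members. For independent draws from 1 population, chance gives about 1 in 20. KO and KO_RES each mix 2 lines, and genes of a library can move together, so that rate may not hold here. KO_RES 2_2 was the lowest of KO_RES for COX6C (77.5 CPM), COX7B (112 CPM), NDUFA4 (116 CPM) and UQCRHL (8.15 CPM), and the highest for COX6B2 (1.60 CPM). KO_RES 2_1 was the highest of KO_RES for NDUFB8 (12.1 CPM). Among controls, control 3 was the highest for ATP5MC2 (113.7 CPM) and NDUFC1 (55.5 CPM), and control 4 for COX6B2 (1.06 CPM).

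The effect relative to the shared controls differed between the lines for 14 members in the direct test of KO2 against KO1 with edgeR. The log2 differences were -1.21 for NDUFA5, -0.73 for NDUFA10, -0.88 for NDUFA2, -0.50 for NDUFA8, -1.01 for NDUFB2, -1.01 for NDUFS3 and -0.55 for NDUFS7 in complex I. They were -0.45 for SDHC, -0.62 for UQCRC1, -0.45 for UQCRC2 and -3.04 for NDUFA4L2 in complexes II to IV, and -0.83 for ATP5F1D, -0.72 for ATP5PF and -0.78 for ATP5PO in the ATP synthase.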

How the results depend on the processing

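Counts of called members depended on the libraries used. KO against control gave 4 with DESeq2, 1 with no filter on low counts, 9 as the mean of both lines (16.1% of all genes called), 5 with groups by the genotype field, 0 with the 8 libraries with matching labels (6 at an unadjusted p under 0.05) and 0 without controls 1 and 2 (2 at an unadjusted p under 0.05). KO_RES against control gave 1 with no filter, 1 with only the groups compared, 10 as the mean of both lines, 9 by the genotype field, 0 with the 8 libraries (11 unadjusted) and 0 without controls 1 and 2 (4 unadjusted). The share of all genes called moved too, over 0.36% to 16.1% in KO against control and 0.32% to 15.4% in KO_RES against control for these settings. Leaving out 1 library gave 1 to 4 in KO against control, 1 to 3 in KO_RES against control, 5 to 26 in KO1, 1 to 11 in KO2, 4 to 18 in KO2 against KO1 and 4 to 32 in number 2 against number 1; a line left with 1 library was assumed to vary like the others. With 1 library left out, the share of all genes called ran over 2.6% to 7.76% in KO against control. It ran over 2.39% to 5.87% in KO_RES against control. Without 1 control it ran over 14.2% to 17.5% in KO1, 7.12% to 10.4% in KO2 and 11.3% to 12.2% in KO2 against KO1. That share also moved where a line was left with 1 library. These counts therefore do not separate a change in the subunit genes from a change in all genes. KO_RES against KO gave 0 under every alternative run, with 14 at an unadjusted p under 0.05 by the genotype field. The replicate block of line and number also gave 0 and changed no member's call. Chosen after the data were seen, line 1 alone gave 0 in number 2 against number 1, and KO2 against KO1 gave 29 with number as a term and 37 with the rescue libraries included, where 29% and 26.9% of all genes were called, against 12% without these changes. The cause of these shifts was not tested.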
